A study of Mus musculus with 72 samples.

Results

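The levels of 9 mouse genes of fatty acid synthesis were followed in liver and in the suprachiasmatic nucleus (SCN), the site of the master circadian clock in the hypothalamus. The members were chosen by name: Srebf1, Mlxipl, Fasn, Acaca, Acacb, Acly, Me1, Elovl6 and Thrsp. All 9 were in the liver table of 22823 genes, and 8 were in the SCN table of 15759 genes; Mlxipl in SCN was not analysed here. C57BL/6 mice aged 8 to 12 weeks at purchase ate a diet lacking methionine and choline (MCD) or its isocaloric control, with free access, for 11 days. They were housed singly in light and dark for 10 days and were killed on the next day, in constant darkness, every 4 h from circadian time (CT) 0 to CT20. Each of the 24 groups, set by tissue, diet and time, held 3 libraries, 1 per mouse, from 2 males and 1 female according to the labels and the design text; the protocol text speaks of male mice only. Liver RNA came from the left lobe, and SCN RNA from laser-microdissected brain sections. The labels do not say which liver and SCN libraries came from the same mouse.

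Liver makes fatty acids from citrate that leaves the mitochondria. ATP citrate lyase (Acly) splits it into cytosolic acetyl-CoA, the acetyl-CoA carboxylases (Acaca and Acacb) turn that into malonyl-CoA, fatty acid synthase (Fasn) builds palmitate with NADPH supplied in part by malic enzyme (Me1), and Elovl6 lengthens palmitate towards stearate. In liver this pathway is known to be driven by SREBP-1c, a product of Srebf1 that responds to insulin, and by ChREBP, the product of Mlxipl that responds to glucose metabolites, and it follows the daily feeding cycle. Thrsp encodes the Spot 14 protein, a small lipogenic factor known to be induced by thyroid hormone and carbohydrate.

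Total counts in M (mega, as in Mb) ranged from 52.6 to 86.7 per liver library, with a median of 64.4, and from 23.3 to 79.8 per SCN library, with a median of 57.0. Levels are given as counts-per-million (CPM) after TMM scaling within a tissue, and a gene is called changed at a Benjamini-Hochberg adjusted p under 0.05 over all genes tested. Liver libraries fell into 2 kinds by their counts of mitochondrial mt-Nd6, with 8 control and 13 MCD libraries in the low kind and 10 control and 5 MCD libraries in the high kind. Of the 2 male control CT08 liver libraries, whose columns bear the same name and are called (a) and (b) here, (a) held the lowest control level of Mlxipl, Fasn, Acacb, Acly, Me1, Elovl6 and Thrsp. All 7 hepatocyte markers were in the liver table, and their summed level ran from 82195 to 121320 CPM on control and from 57943 to 121702 CPM on MCD; 5 of the 7 were called lower. The 7 SCN neuron markers were all in the SCN table. In liver, 6 of 6 macrophage markers were higher on MCD (summed means 358 and 470 CPM) and 4 of 5 erythrocyte markers lower (275 and 151 CPM). Of 7 adipocyte markers only Fabp4 was in the liver table (Adipoq, Plin1, Lep, Retn, Cfd and Cidea were not), at 4.59 to 9.96 CPM on control and 4.56 to 17.1 CPM on MCD. Fewer cells of a type and less RNA per cell cannot be told apart in such bulk samples, and the part of these marker differences in the results was not tested.

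All 9 genes were lower in liver on MCD than on control, averaged over the 6 times in edgeR's quasi-likelihood test. Across the 20249 liver genes tested, 46.6% were called and 21.2% were called lower. The members' median log2 change was -1.54, against 0.02 for all genes tested. Of the 9, 8 were both called and at least 1 log2 unit lower, as were 2.81% of all genes. Ordered from the most negative log2 change of all 20249 genes, Thrsp, Elovl6 and Acly stood at places 246, 271 and 272, and Mlxipl, the mildest of the 9, at place 2264. TMM factors averaged 0.917 in control and 1.10 in MCD livers, so the direction of mild changes depends on the scaling. Scaled by library totals alone, the median of all liver genes moved to 0.27 log2, and 12.7% of the calls were lower in place of 45.6%. All 9 members remained called lower on that scale, with a median of -1.29 and with Mlxipl at -0.26 (edgeR adjusted p 3.07e-03). Fitted within the high mt-Nd6 kind alone, 9 of 9 were called lower (13.7% of all genes in that fit), and within the low kind 8 of 9 (14% of all genes), Mlxipl being at -0.40 (edgeR adjusted p 0.0622).

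Among the regulators, Srebf1 (ENSMUSG00000020538.16; chr11:60199089-60222581 on GRCm38, as all positions of the members here, minus strand), the sterol-regulated transcription factor gene, had a lowest, median and highest level of 247, 563 and 1168 CPM in the 18 control livers and of 137, 252 and 560 CPM in the 18 MCD livers. The groups overlapped: 9 control libraries lay above every MCD library, and 7 MCD libraries lay below every control library. Its mean was 632 ± 320 CPM (SD, n = 18) on control and 253 ± 92.7 CPM (SD, n = 18) on MCD, a change of -1.23 ± 0.17 log2 (SE; edgeR adjusted p 1.91e-06), which is 0.426 of the control level. Mlxipl (chr5:135089890-135138382, plus strand) was at 289, 625 and 903 CPM on control and at 197, 484 and 702 CPM on MCD. Only 5 control libraries lay above every MCD library, the fewest among the 9 genes. The mean went from 632 ± 136 to 451 ± 140 CPM (SD, n = 18 each), a log2 difference of -0.51 ± 0.098 (SE; edgeR adjusted p 1.19e-04). Thrsp (chr7:97412938-97417730, minus strand) was at 69.1, 1226 and 2833 CPM on control and at 10.3, 199 and 938 CPM on MCD. It had the largest change of the 9, -2.18 ± 0.38 log2 (SE; edgeR adjusted p 4.54e-05). 10 of 18 control libraries lay above every MCD library, and the others lay within the MCD range.

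The enzymes that supply acetyl-CoA and NADPH fell strongly. Acly (chr11:100476353-100528000, minus strand) was at 247, 1138 and 2458 CPM on control and at 91.6, 205 and 855 CPM on MCD. With the mean at 1177 ± 649 CPM on control and 258 ± 176 CPM on MCD (SD, n = 18 each), its log2 change was -2.10 ± 0.25 (SE; edgeR adjusted p 1.63e-07), or 0.233 of the control level. 12 of the 18 MCD libraries lay below every control, and 16 did once control library (a) of CT08 was left aside. Me1 (chr9:86581371-86695953, minus strand) was at 148, 563 and 888 CPM on control and at 75.6, 194 and 347 CPM on MCD, a change of -1.44 ± 0.16 log2 (SE; edgeR adjusted p 6.30e-08). 3 MCD libraries lay below every control, and 17 of 18 did once control library (a) was left aside.

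Both carboxylases fell, the cytosolic form by less than the mitochondria-associated one in the point estimates, a difference that was not tested. Acaca (chr11:84129672-84401651, plus strand), whose malonyl-CoA feeds synthesis, was at 190, 460 and 1115 CPM on control and at 132, 207 and 288 CPM on MCD. 14 of 18 control libraries lay above every MCD library, and the log2 change was -1.14 ± 0.12 (SE; edgeR adjusted p 3.75e-08). Acacb (chr5:114146535-114250761, plus strand), whose malonyl-CoA restrains entry of fatty acids into mitochondria, was at 110, 378 and 720 CPM on control and at 38.5, 99.2 and 309 CPM on MCD. Its log2 change was -1.54 ± 0.20 (SE; edgeR adjusted p 7.81e-07), and 10 MCD libraries lay below every control.

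Fasn and Elovl6 carried the later steps. Fasn (chr11:120805846-120824547, minus strand) was at 592, 3216 and 7663 CPM on control and at 140, 916 and 2685 CPM on MCD, with means of 3272 ± 2117 and 990 ± 680 CPM (SD, n = 18 each). The groups overlapped between 592 and 2685 CPM, and 12 control libraries lay above that range. Its log2 change was -1.65 ± 0.32 (SE; edgeR adjusted p 1.62e-04), 0.318 of the control level. Elovl6 (chr3:129532355-129638495, plus strand) was at 126, 572 and 2179 CPM on control and at 45.5, 151 and 323 CPM on MCD. Its log2 change was -2.11 ± 0.26 (SE; edgeR adjusted p 4.73e-07), and 13 of 18 control libraries lay above every MCD library. The kit marks strand, but the setting used for counting is not given in the sources used here; an annotated gene on the opposite strand overlaps Srebf1 (Rai1), Mlxipl, Acaca, Acacb, Me1 and Elovl6, and none overlaps Fasn, Acly or Thrsp in GENCODE M21.

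**Figure D1:**
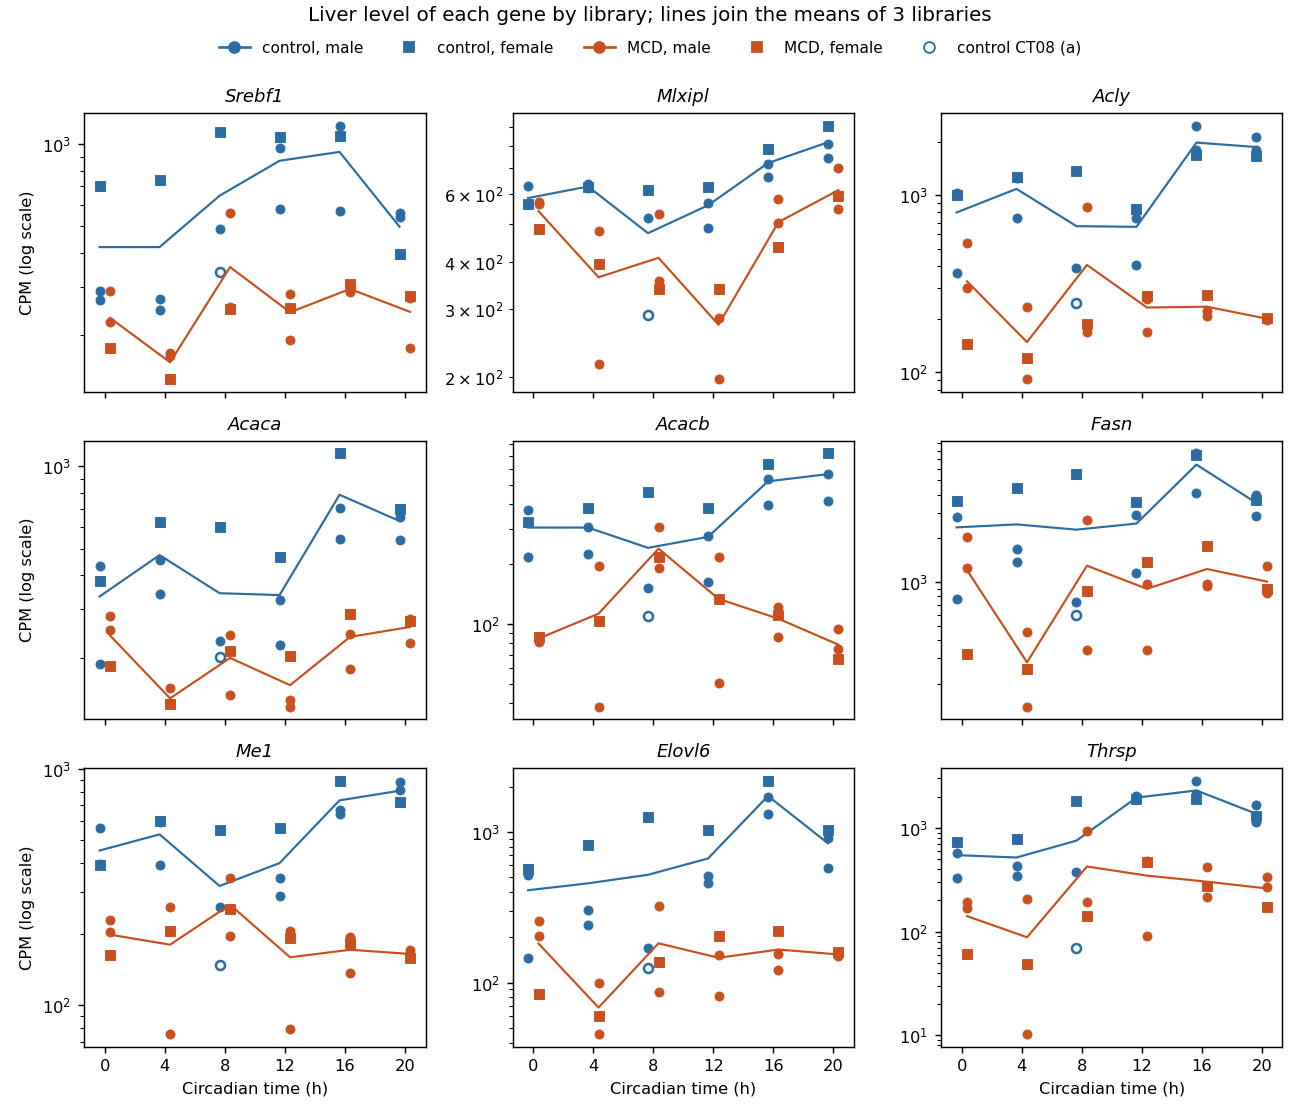
Liver level of each of the 9 genes by circadian time (h), in CPM on a log axis; points are single libraries, circles from males and squares from females, the open circle is control library (a) of CT08, and lines join the group means. MCD libraries lie below the controls at CT04, CT16 and CT20 for each of the 9 genes, as they do for 16.6%, 15.1% and 13.6% of all liver genes tested, while at CT08 the diets overlap for each of the 9 (6.64% of all genes lie below).

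Per kilobase of annotated exons, which allows a comparison between genes, Thrsp was the most abundant of the 9 in control liver at 566 CPM per kb, followed by Fasn at 299, Acly at 223, Me1 at 140, Elovl6 at 120, Mlxipl at 114, Srebf1 at 112, Acacb at 38.3 and Acaca at 28.4. On MCD, Thrsp stood at 119 CPM per kb, Fasn at 90.5, Mlxipl at 81.5, Me1 at 49.5, Acly at 48.8, Srebf1 at 45.0, Elovl6 at 23.3, Acacb at 13.1 and Acaca at 12.1. In these means Mlxipl thus moved from the sixth place to the third, a shift that was not tested. These levels divide by all annotated exon bases, 17074 for Acaca. Of these, the long bins 3 (2981 bases) and 21 (3966 bases) held few of its counts, if annotated and deposited bins match by number. The order of Acaca and Acacb rests on that length and is not read. On control, each gene differed from the next in that order by less than the SD of the higher one over its libraries, except Srebf1 from Acacb; Acaca is left out of this comparison.

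The promoters of the members, taken as the 250 bases before each start in RefSeq on GRCm38.p6, are shown for genes whose mRNA fell together, as a view of what letters they share. RefSeq gave 13 such windows for the 9 genes, called promoters here. The Acaca window, chr11:84195188-84195437, ends right before an exon shared by 7 transcripts of GENCODE M21. For transcripts that start upstream, such as Acaca-202, that window is intron. Annotated exons cover 180 of the 250 bases of the Thrsp window, 39 of the first Me1 window, 31 of the Elovl6 window and 9 of the Acacb window. Printed here, 5′ to 3′ on the strand of the gene, are 5 without annotated exon bases, from both lipogenic transcription factor genes and from 2 enzyme genes. Capitals mark matches on either strand to the E-box CACGTG, the sterol regulatory element TCACNCCAC, the CCAAT box CCAAT or the GC box GGGCGG; overlapping CCAAT matches on both strands, as in Fasn, run together.
Srebf1 most downstream promoter, chr11:60210472-60210721, minus strand: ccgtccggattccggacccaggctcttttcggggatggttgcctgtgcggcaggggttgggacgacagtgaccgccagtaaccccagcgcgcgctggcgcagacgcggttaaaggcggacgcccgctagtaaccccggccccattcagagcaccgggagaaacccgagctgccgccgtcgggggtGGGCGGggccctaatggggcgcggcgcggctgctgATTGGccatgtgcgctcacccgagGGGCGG
Mlxipl first promoter, chr5:135089640-135089889, plus strand: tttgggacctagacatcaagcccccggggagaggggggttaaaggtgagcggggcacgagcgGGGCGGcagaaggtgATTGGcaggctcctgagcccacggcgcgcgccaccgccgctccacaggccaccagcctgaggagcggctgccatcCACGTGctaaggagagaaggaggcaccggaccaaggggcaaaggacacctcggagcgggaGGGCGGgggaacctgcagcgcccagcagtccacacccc
Mlxipl downstream promoter, chr5:135106641-135106890, plus strand: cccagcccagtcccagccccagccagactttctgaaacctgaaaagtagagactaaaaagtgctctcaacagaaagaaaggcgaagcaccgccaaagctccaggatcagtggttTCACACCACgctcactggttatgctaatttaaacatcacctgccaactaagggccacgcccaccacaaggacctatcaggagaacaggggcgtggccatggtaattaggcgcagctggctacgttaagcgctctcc
Acly promoter, chr11:100528001-100528250, minus strand: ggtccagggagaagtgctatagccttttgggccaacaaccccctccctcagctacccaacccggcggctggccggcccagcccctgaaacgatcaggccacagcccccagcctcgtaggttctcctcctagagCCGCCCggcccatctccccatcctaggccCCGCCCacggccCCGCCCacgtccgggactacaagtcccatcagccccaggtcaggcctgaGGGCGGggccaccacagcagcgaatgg
Fasn promoter, chr11:120824548-120824797, minus strand: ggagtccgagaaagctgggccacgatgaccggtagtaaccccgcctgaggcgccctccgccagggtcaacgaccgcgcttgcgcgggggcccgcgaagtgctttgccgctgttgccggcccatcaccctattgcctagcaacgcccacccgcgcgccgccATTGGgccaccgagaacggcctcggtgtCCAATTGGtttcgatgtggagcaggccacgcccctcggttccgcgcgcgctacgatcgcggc

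In these 5, the only E-box of this spelling lies in the first Mlxipl promoter, at -98 to -93 from the start, and the only sterol regulatory element in the downstream one, at -136 to -128. Over all 13 windows of the members, those with exon bases and that of Acaca included, 1 held the E-box and 1 the sterol regulatory element. Of 32851 promoters of the same length, 6.02% and 1.05% did. The CCAAT box was in 7 of 13 (33.8% of all promoters) and the GC box in 5 of 13 (32.7%). The LXR element, a direct repeat of AGGTCA with 4 bases between the copies, was in 0 of 13 and in 0.0152% of all. These are matches of letters in a short window, with no measurement of binding, and a site spelled otherwise is not seen.

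The diet effect was also tested at each hour of sampling, where 28 of 54 gene-by-time comparisons were called lower and none higher. The numbers were 2 of 9 at CT00 (12.6% of all genes called, 6.02% lower), 8 of 9 at CT04 (18.2%, 8.71% lower), 0 of 9 at CT08 (1.3%, 0.751% lower), 5 of 9 at CT12 (15.2%, 7.13% lower), 8 of 9 at CT16 (12.5%, 5.99% lower) and 5 of 9 at CT20 (11.3%, 5.6% lower). Several of these counts rest on single libraries. The count at CT04 became 3 without MCD library 1 of that time and 5 without MCD library 3. At CT12 it became 2 without either control library 3 or MCD library 2, and at CT16 it became 5 without either control library 1 or MCD library 3. At CT00 it became 0 without either control library 1 or MCD library 3, and 1, with only Acacb called, without any one of control library 2 and MCD libraries 1 and 2 of CT00, or of 8 control libraries of other times. Whether the diet effect differed between hours was tested only as the rhythm difference. The 3 MCD libraries lay below the 3 control libraries for 9 of 9 genes at CT04 (16.6% of all liver genes tested), at CT16 (15.1%) and at CT20 (13.6%), for 7 of 9 at CT12 (14.2%), for 3 of 9 at CT00 (13.4%) and for 0 of 9 at CT08 (6.64%). At CT08 only Acaca had an unadjusted p under 0.05 (12.6% of all genes did), DESeq2 called 0 of 9, and the edgeR count remained 0 without control library (a).

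CT16, the early active phase of a nocturnal animal, held several of the largest differences. Fasn was at 7663, 4119 and 7487 CPM in the 3 control livers and at 978, 940 and 1782 CPM in the 3 MCD livers, a log2 difference of -2.43 ± 0.80 (SE; edgeR adjusted p 0.0459). Acly was at 2458, 1791 and 1691 CPM on control and at 223, 207 and 274 CPM on MCD, -3.09 ± 0.62 log2 (SE; edgeR adjusted p 2.12e-03). Elovl6 was at 1704, 1309 and 2179 CPM on control and at 156, 121 and 221 CPM on MCD, -3.40 ± 0.67 log2 (SE; edgeR adjusted p 1.78e-03). For these 3 genes the lowest control stood far above the highest MCD library. Mlxipl was not called at CT16, with 717, 664 and 787 CPM on control against 581, 503 and 436 CPM on MCD (-0.51 ± 0.24 log2, SE; edgeR adjusted p 0.169). DESeq2 called 7 of 9 genes lower there (9.31% of all genes), without Mlxipl and Fasn, and the edgeR call of Fasn was lost without the filter on low counts.

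At CT20 Acacb was at 415, 567 and 720 CPM on control and at 75.1, 94.7 and 66.6 CPM on MCD, its largest difference of any time (-2.80 ± 0.51 log2, SE; edgeR adjusted p 8.73e-04). Acly was likewise most different then, with 1808, 2126 and 1670 CPM on control against 198, 201 and 203 CPM on MCD (-3.22 ± 0.63 log2, SE; edgeR adjusted p 1.59e-03). At CT04, in the rest phase, Fasn showed its largest difference, 1380, 1684 and 4426 CPM on control against 140, 453 and 253 CPM on MCD (-2.98 ± 0.82 log2, SE; edgeR adjusted p 0.0135). Thrsp at CT04 reached its minimum in 1 MCD male, at 10.3 CPM, beside 206 and 48.6 CPM in the other MCD mice and 346, 433 and 773 CPM in controls. That difference was not called (-2.54 ± 0.94 log2, SE; edgeR adjusted p 0.0604). The main edgeR fit called Thrsp at CT16 alone. It was called at CT04, CT12 and CT16 by DESeq2 and by the edgeR fits without control library (a) of CT08 or with the replicate block.

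At CT08 the libraries of both diets spread widely. Fasn was at 592 and 734 CPM in the 2 control males and at 5566 CPM in the control female, and at 2685, 345 and 869 CPM on MCD. The same 2 libraries were highest for Thrsp, with 69.1, 377 and 1814 CPM on control against 938, 192 and 142 CPM on MCD. The high MCD library at this time, the male MCD CT08 1, held the highest MCD level of Srebf1, Fasn, Acacb, Acly, Me1, Elovl6 and Thrsp in all 18 MCD livers. Its TMM factor was 0.986 and that of control library (a) was 1.18, against means of 0.917 on control and 1.10 on MCD. By that factor each of these libraries lay nearer to the mean of the other diet. The count at CT08 was 0 without either library alone. Leaving out both was not tried, and whether their labels are right was not tested. Acacb had the only positive log2 value of the 54, 0.10 ± 0.48 (SE; edgeR adjusted p 0.976).

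**Figure D2:**
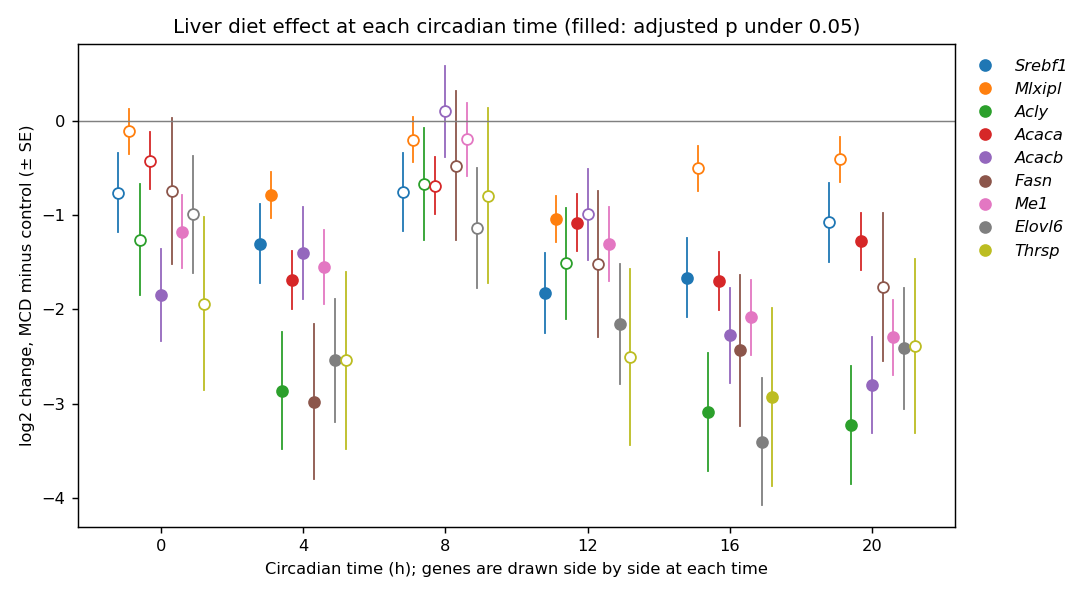
Log2 change of each gene on MCD against control liver at each circadian time (h), with its standard error; filled points passed an adjusted p of 0.05. Filled points number 8 at CT04 and at CT16 and 0 at CT08.

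Over the day, the control liver showed a 24 h pattern in 4 of the 9 genes by edgeR's test of cosine and sine terms, where 17.8% of all genes were called. These were Srebf1 (adjusted p 0.0179), with a fitted peak at 13.7 h and a fitted range from trough to peak of 1.41 log2, and Acaca (adjusted p 0.0178), peaking at 18.3 h with a range of 1.02. The others were Elovl6 (adjusted p 0.029; 16.6 h, range 2.19) and Me1 (adjusted p 0.029; 19.5 h, range 1.27). Thrsp had the widest fitted range, 2.75 log2 with a peak at 16.0 h, at an adjusted p of 0.0673. All 9 fitted peaks on control lay between 13.7 and 19.6 h, as a description of the fit whether called or not. These 4 calls depend on single livers, falling to 1 without the male control CT04 1 or the female control CT16 3 and rising to 9 without the female control CT08 3. They ranged from 0 to 5 with a whole replicate left out, and from 0 to 5 under the other settings. On MCD 2 genes were called, where 28.2% of all genes were: Mlxipl (edgeR adjusted p 2.69e-03), with a peak at 21.1 h and a range of 0.97 log2, and Acacb (edgeR adjusted p 0.0311), with a peak at 9.16 h and a range of 1.19. The calls on MCD became 1 with any whole replicate left out. They ranged from 1 to 3 with single libraries left out, and from 0 to 3 under the other settings.

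A test of the difference between the 2 daily patterns called 1 of 9 members, Acacb (edgeR adjusted p 0.0232), where 4.87% of all genes were called. Its fitted peak stood at 19.1 h on control and at 9.16 h on MCD. The control means of Acacb ran 306, 306, 242, 274, 522 and 567 CPM from CT00 to CT20, and the MCD means ran 84.6, 113, 239, 134, 106 and 78.8 CPM. Control livers were thus highest at CT16 and CT20, and MCD livers at CT08. Me1, the next gene in that test, did not pass (edgeR adjusted p 0.0797). The call for Acacb was lost with the replicate number as a block (edgeR adjusted p 0.191) and within either kind of library. It was also lost without replicate 1, 2 or 3. The block fit also left out both male control CT08 libraries, which bear no replicate number, so its loss is not that of the block alone. Both of those libraries stayed in the fits without replicate 1 or 2. The call remained when single libraries were left out, at edgeR adjusted p 0.00627 to 0.0495.

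Control females had higher mean levels of all 9 genes than control males, as for 50.1% of all liver genes tested, with ranges that overlapped. Fasn averaged 2551 ± 2029 CPM in control males (SD, n = 12) and 4713 ± 1564 CPM in control females (SD, n = 6), against 1027 ± 741 and 918 ± 595 CPM on MCD. Srebf1 averaged 523 ± 288 CPM in control males and 849 ± 285 in control females, and 263 ± 105 and 233 ± 63.4 on MCD. For Elovl6 the means were 581 ± 494 CPM in control males and 1150 ± 556 in control females, and 152 ± 78.2 and 144 ± 63.9 on MCD. In the test of sex by diet, the female change minus the male change was below 0 for all 9 genes, as for 55.7% of all genes, but none was called (0 of 9, with 1.77% of all genes called). At an unadjusted p under 0.05 there were 4 of 9 genes, with 12.3% of all genes, led by Srebf1 (-0.99 ± 0.31 log2, SE; edgeR p 0.00378, adjusted p 0.117), and DESeq2, which called 3.66% of all genes, called 1, Srebf1 (adjusted p 0.0299). The ranges of the sexes overlapped on both diets for each of the 3 genes.

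In SCN no such change was detected. None of the 8 members tested there was called (0 of 8), where 0.0635% of 15759 genes were called, and the members' median log2 change was -0.06 against 0.00 for all genes. At an unadjusted p under 0.05 there was 1 of 8 (4.73% of all genes), and DESeq2 called 0 of 8. Fasn was at 112, 162 and 206 CPM (lowest, median, highest) in control SCN and at 138, 160 and 197 CPM on MCD, with a log2 change of 0.01 whose 95% interval ran from -0.082 to 0.098. Acly was nearest to a call, at 99.4, 120 and 138 CPM on control against 90.3, 108 and 136 CPM on MCD (-0.11 ± 0.041 log2, SE; edgeR p 0.00964, adjusted p 0.706). In both cases the ranges of the diets overlapped over most of their length. Srebf1 averaged 56.8 ± 6.36 and 58.4 ± 4.58 CPM, Acaca 62.3 ± 7.78 and 59.0 ± 7.12 CPM, Me1 97.6 ± 8.41 and 92.3 ± 7.46 CPM, and Elovl6 52.1 ± 9.72 and 50.9 ± 13.8 CPM (SD, n = 18 each). Acacb and Thrsp were scarce there, at 9.79 ± 2.28 and 10.7 ± 1.87 CPM and at 16.7 ± 3.79 and 14.97 ± 3.42 CPM (SD, n = 18 each). 1 MCD library, CT16 1, held Elovl6 at 7.10 CPM, far below the other SCN libraries. No member had a called 24 h pattern in SCN on either diet, with 15.1% of all genes called on control and 16.1% on MCD; at an unadjusted p under 0.05 there were 2 of 8 on control (28.8% of all genes) and 1 of 8 on MCD (30.2%).

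The diet effect itself was compared between the tissues in 1 model of all 72 libraries, which treats liver and SCN libraries as independent. All 8 members changed more negatively in liver than in SCN, where 34.7% of 14491 genes were called and 15.8% were called in that direction. The liver change minus the SCN change ran from -1.06 ± 0.14 log2 for Acaca to -2.07 ± 0.29 log2 for Elovl6 (SE), with edgeR adjusted p-values between 6.26e-09 (Me1) and 5.00e-05 (Fasn). Scaled by library totals alone, 17.0% in place of 45.5% of all calls of that difference were negative, and all 8 members remained called in the same direction.

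**Figure D3:**
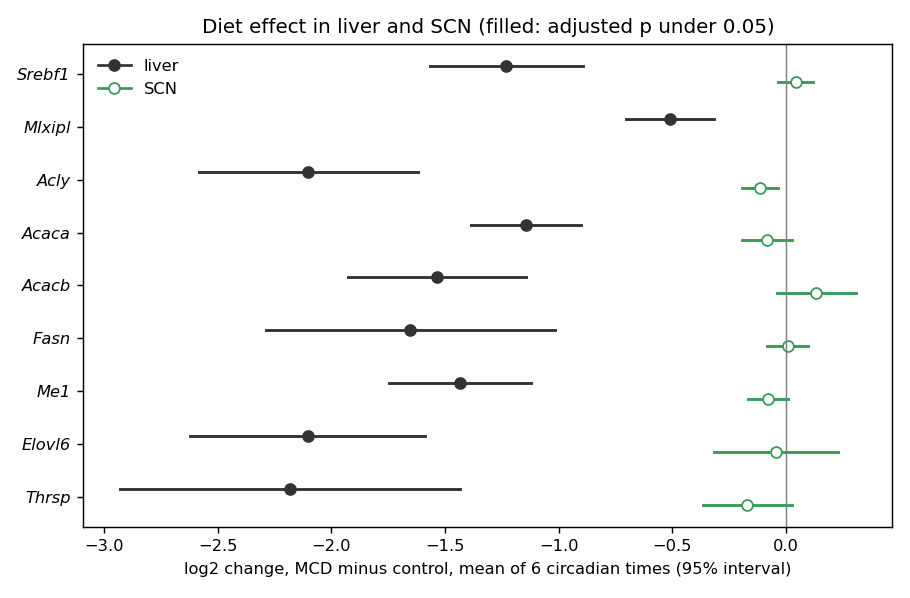
Log2 change on MCD against control with its 95% interval for each gene in liver and in SCN; filled points passed an adjusted p of 0.05. All 9 liver points are filled and lie between -0.51 and -2.18, and the 8 SCN points are open and lie between -0.17 and 0.13.

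The deposited exon counts of liver divide Acaca into 70 bins, numbered along the gene. Of these, 65 held enough counts to test in the 34 libraries with complete files. The other files, of the males control CT00 1 and control CT00 2, end after Acaca. The test thus held only the female control at CT00. With all 36 libraries and the genes before those files end, bins 4, 5 and 7 were called, as in the main fit. The usage of its bins changed with diet (edgeR diffSpliceDGE, Simes adjusted p 1.52e-18 over 11694 genes, of which 3.45% were called). The F test over all bins of the gene had an adjusted p of 6.26e-09, with 5.81% of genes called, but of 0.0217 without replicate 2 and of 1 without replicate 3, where its call was lost. Replicate 3 is the female of each group, so the fit without it held males only. Usage compares the change of a bin with the change of the whole gene. 3 bins were called, all near the start of the gene, where 0.4% of 178178 bins were called. Bin 5 changed by -1.65 log2 relative to the gene (adjusted p 2.82e-19) and bin 4 by -1.12 (adjusted p 1.33e-03), while bin 7 changed by 0.59 (adjusted p 0.0102) and bin 6, not called, had a value of 0.58 (adjusted p 0.240). Without replicate 2 or without replicate 3, bin 5 was the only 1 called.

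The pair of bins 4 and 5 and the pair of bins 6 and 7 were set side by side after their values were seen. Bins 4 and 5 held 0.0266%, 0.577% and 1.04% of the Acaca bin counts (lowest, median, highest) in control livers and 0%, 0.142% and 0.229% in MCD livers. Bins 6 and 7 held 0.0986%, 0.388% and 0.932% on control and 0.466%, 0.640% and 1.09% on MCD. In deposited counts, not scaled for library size or by TMM, the first pair averaged 167 ± 153 per control library and 17.7 ± 10.8 per MCD library, and the second pair averaged 92.6 ± 37.1 and 91.3 ± 30.4 (SD, n = 18 each). These unscaled counts show the depth behind the shares and are not compared between the diets. The MCD library CT04 1 held 0 of 10419 Acaca counts in bins 4 and 5, which allows a share of up to 0.0288%, a limit that covers counting error only.

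Of the counts in bins 4 to 7, the first pair took 54.4 ± 25.3% on control and 15.6 ± 8.92% on MCD (SD, n = 18 each). The control CT08 1 library was the lowest control at 2.78%, and without it the control mean was 57.5 ± 22.4% (SD, n = 17). The share was 74.1 ± 12.0% in control females (SD, n = 6) and 44.6 ± 24.6% in control males (SD, n = 12), against 14.9 ± 9.08% and 15.9 ± 9.22% on MCD. Within the control day it was highest at CT16, at 73.3%, 72.2% and 91.3%, while the MCD livers of that time were at 24.0%, 26.0% and 24.1%. The files give no positions for the bins. The Acaca exons of GENCODE M21 on GRCm38, cut the same way, also gave 70 bins, in which bins 4 and 5 are chr11:84173122-84173555, the first exon of Acaca-202 and Acaca-207, and bins 6 and 7 are chr11:84179831-84179926, the first exon of Acaca-203, Acaca-205 and Acaca-206. That match is by bin number alone, since the submitters' processing notes name GRCm39 and bin length and count were only loosely related over bins (Spearman rho 0.361), so which transcripts the bins belong to is not settled by these data.

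Genes around the 9 members were read from 5 lists of textbook pathway members. Over all liver genes tested, 21.2% were called lower and 25.3% higher, and by library totals 1540 were lower and 10633 higher of 20249. The list of SREBP processing and control, which holds Srebf2, its processing proteins and transcription factors that act with it, numbered 17 genes, of which 5 were called lower, 2 higher and 10 not called, with a median log2 change of -0.01; by library totals 2 were lower and 13 higher. The share called lower lay near that of all genes. Scap, the escort protein of SREBP, averaged 182 ± 47.4 and 108 ± 13.9 CPM (-0.72 ± 0.066 log2, SE; edgeR adjusted p 2.36e-09). Its partners in sterol control, Insig1 and Insig2, were called lower as well, at -0.96 ± 0.19 and -0.41 ± 0.10 log2 (SE; edgeR adjusted p 1.92e-04 and 1.64e-03), though Insig2 was not called by library totals. Of 12 genes of glucose sensing and of ChREBP's partners and targets, 6 were lower, 1 higher and 5 not called, with a median of -0.19, and by library totals 3 were lower and 4 higher. They included glucose-6-phosphatase G6pc (-1.03 log2), ketohexokinase Khk (-0.92) and liver pyruvate kinase Pklr (-0.69), with edgeR adjusted p-values of 3.03e-04, 1.45e-05 and 5.85e-03.

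Substrate and NADPH supply was the list most uniformly lower, with 12 of 15 genes lower, 2 higher and 1 not called, and a median of -0.28 log2. Of all liver genes, 21.2% were lower and 25.3% higher. By library totals 6 of the list were lower and 2 higher, against 1540 lower and 10633 higher of all 20249 genes. Acss2, which makes cytosolic acetyl-CoA from acetate, averaged 473 ± 239 CPM on control and 80.3 ± 28.3 CPM on MCD (-2.43 ± 0.22 log2, SE; edgeR adjusted p 2.79e-09). The NADPH-producing dehydrogenases G6pdx and Idh1 changed by -0.76 and -0.64 log2 (edgeR adjusted p 2.64e-03 and 1.25e-07). Of 15 genes that turn over malonyl-CoA or control acetyl-CoA carboxylase, 4 were lower, 3 higher and 8 not called, with a median of 0.01, and by library totals 1 was lower and 9 higher. These shares, too, lay near those of all genes. The genes that rose were Cpt1b, the muscle-type carnitine palmitoyltransferase (1.71 to 5.40 CPM, 1.64 log2), Brca1, whose protein binds phosphorylated carboxylase (2.34 to 5.97 CPM, 1.39 log2), and the AMP kinase subunit gene Prkab2 (3.72 to 5.98 CPM, 0.67 log2), with edgeR adjusted p-values of 1.39e-03, 1.24e-07 and 3.86e-07; all 3 were at low levels.

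The later steps to triglyceride held the largest single changes, with 8 of 16 genes lower, 1 higher and 7 not called, and a median of -0.43 log2. Of all liver genes, 21.2% were lower and 25.3% higher. By library totals 5 of the list were lower and 2 higher, against 1540 lower and 10633 higher of all 20249 genes. Scd1, the stearoyl-CoA desaturase of liver, averaged 16132 ± 8246 CPM on control and 792 ± 389 CPM on MCD (SD, n = 18 each), a change of -4.22 ± 0.27 log2 (SE; edgeR adjusted p 9.41e-12). Scd2 changed by -2.56 ± 0.18 and the elongase gene Elovl5 by -1.30 ± 0.097 log2 (SE; edgeR adjusted p 7.36e-11 and 8.46e-11). In SCN, 0 genes of any of the 5 lists were called by edgeR, where 0.0635% of all SCN genes were, and DESeq2 called 0 in each. At an unadjusted p under 0.05 there were 0 of 17, 1 of 7, 4 of 15, 0 of 13 and 1 of 15 in the order of the lists above. Of all SCN genes, 4.73% had such a p.

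**Figure D4:**
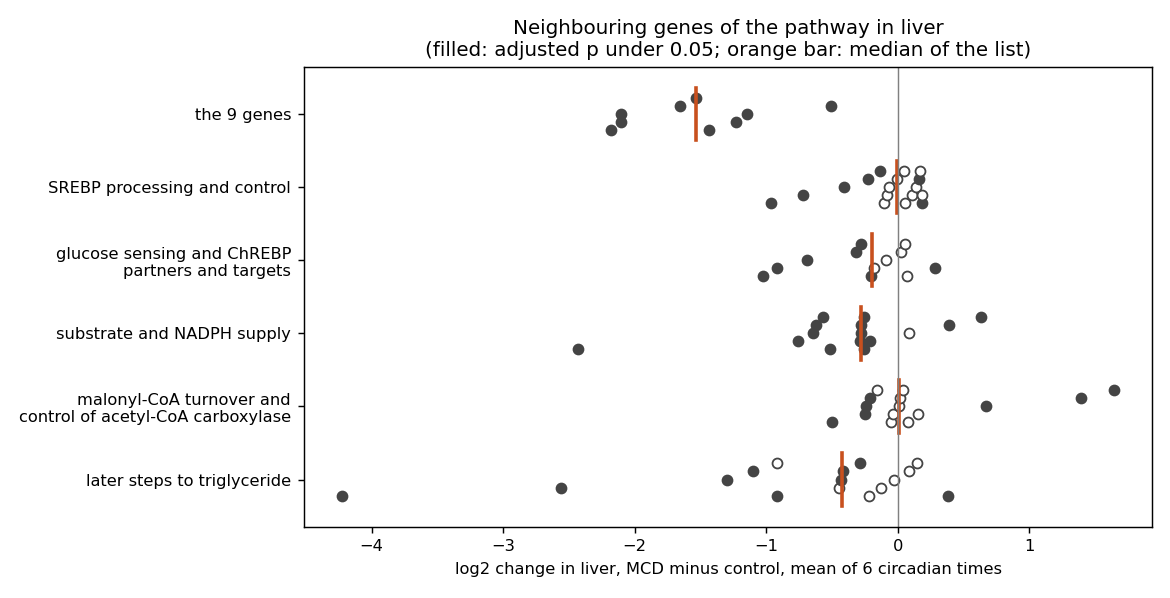
Log2 change on MCD against control liver for the 9 members and the genes of 5 lists; each dot is a gene, filled where adjusted p was under 0.05, and the orange line is the median of the group. The members' median is -1.54, and the list medians lie between -0.43 and 0.01.

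Over the 12 liver group means of diet and time, the members varied together to different degrees. Pearson's r of log2 CPM between 2 members ran from 0.543 for Srebf1 with Mlxipl to 0.979 for Acly with Me1, as a description of groups that share libraries, diet and scaling. Against the members' mean standardised profile over these 12 points, 243 of 13831 genes of at least 1 CPM had an r of 0.9 or more. The 10 nearest were Gm35986 (r 0.976), Mttp (0.974), Shmt1 (0.973), Gm11295 (0.970), Gm47451 (0.966), Slco2b1 (0.964), Gm26588 (0.964), Pdk1 (0.961), Fbxo3 (0.961) and Uqcrb (0.960). Mttp encodes the microsomal transfer protein of lipoprotein assembly, Shmt1 a serine hydroxymethyltransferase and Pdk1 a pyruvate dehydrogenase kinase. Gm35986 lies over Elovl6 on the opposite strand, so its reads and those of Elovl6 may not be separable.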

How the data were processed

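The data are deposited tables of gene counts and, for liver, exon-bin counts, 1 value per library. Per the submitters' processing notes, the tools were Trimmomatic, HISAT2, StringTie and DESeq2 on GRCm39; the sources used here do not give their settings. Gene counts were taken as deposited, as whole reads that the authors had not normalized. Libraries were grouped by the tissue, diet, time and sex in the labels. For each tissue, edgeR 4.0.16 (R 4.3.3) fitted all 36 libraries with 12 groups of diet and time and a sex term, after TMM scaling and filterByExpr with a minimum count of 10, and p-values were adjusted by Benjamini-Hochberg over all genes tested. The 24 h pattern was tested as cosine and sine components of the 6 group means. The model of both tissues used genes in both tables. Exon-bin counts were tested with diffSpliceDGE. The scripts were tested on simulated data. No 2 libraries of a group had counts within sampling noise of each other (lowest chi-square per degree of freedom 24.1). Each library is taken as 1 mouse from the labels, so p-values measure the spread between these samples. All 9 members are named, and from each pathway list up to 3 called genes with the largest absolute log2 change in liver. The members and lists were chosen with earlier results of these data known. Alternatives were DESeq2 1.42.0, library totals, no filter on low counts, a replicate block, the kind of library, and leaving out libraries. The replicate block took the place of the sex term. For gene counts it also left out both male control CT08 libraries of a tissue, which bear no replicate number. Both stayed in the gene-count fits without replicate 1 or 2. Replicate 3 is the female of each group, so fits without it held males only. Positions come from GENCODE M21 on GRCm38; gene IDs in the files were 1 version above it for every member.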

Additional observations from a re-analysis of the deposited data

Results flagged for a closer look

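The diet effect differed between liver and SCN by a test of the difference itself for each of the 8 members in both tables. Liver minus SCN was -1.28 log2 for Srebf1, -1.67 for Fasn, -1.06 for Acaca, -1.67 for Acacb, -1.99 for Acly, -1.36 for Me1, -2.07 for Elovl6 and -2.02 for Thrsp. The 24 h pattern of Acacb in liver differed between the diets by the test of the difference (edgeR adjusted p 0.0232). This liver rhythm difference was not called with the replicate block (edgeR adjusted p 0.191), without replicate 1, 2 or 3, or within either kind of library. The block fit also left out both male control CT08 libraries.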

How the results depend on the processing

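The lower liver levels of the 9 genes held their direction and call in 422 of 423 values over the alternatives, none changed sign, and Mlxipl was lost within the low mt-Nd6 kind (8 of 9 called; Mlxipl -0.40, adjusted p 0.0622). All 56 values of the tissue difference held, and in SCN 10 of 344 values changed sign, none of them called. Results by hour were less stable. The 28 calls by time ranged from 9 to 31 with replicates or single libraries left out, where fewer mice enter each group. The 4 rhythm calls on control became 0 within the low kind and 1 within the high kind and ranged from 0 to 9 with replicates or libraries left out, among them 2 without control CT08 (b) and 7 without MCD CT04 1 or MCD CT04 2. The 2 on MCD became 1 within the low kind and 0 within the high kind and ranged from 1 to 3, with 1 without MCD CT12 1, MCD CT20 1 or MCD CT20 3. The single rhythm difference became 0 within either kind and ranged from 0 to 2, Me1 joining without control CT08 3, MCD CT04 1 or MCD CT12 2. For sex by diet, 0 calls became 1 by DESeq2 and ranged from 0 to 1, with Srebf1 called without control CT20 3 (adjusted p 0.0352). SCN rhythm calls ranged from 0 to 1 on each diet: Elovl6 on both without MCD CT16 1, Acacb on control without control CT04 3 and Thrsp on MCD without MCD CT20 1. Over all genes, calls of the liver diet effect went from 9426 to 5108 within the low kind and 5240 within the high kind, of sex by diet from 359 to 741 by DESeq2, of the SCN diet effect from 10 to 48 by DESeq2, and of the liver rhythm difference from 986 to 651 with the replicate block and 0 within the high kind. The cause of these shifts was not tested. Replicate numbers did not pair the samples (5 of 16 liver and 4 of 16 SCN pairs had r over 0.1). With the replicate block, rhythm calls on control became 2, the rhythm difference 0 and calls by time 31. The block fit changed no call of the diet effect averaged over times, the MCD rhythm, the SCN results or the Acaca bins. For gene counts, that fit also left out the sex term and both male control CT08 libraries of a tissue, so its shifts are not those of the block alone. The block fit of the Acaca bins kept every library with a complete file. Acaca bin 4 without replicate 2 had an adjusted p of 0.243, and bin 7 had 0.164 without replicate 2 and 1 without replicate 3. The fit without replicate 3 held males only. Acaca bins 4 and 5 held under 20 counts per MCD library on average, which limits their precision.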
